A study of Mus musculus with 7 samples.

Results

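The genes described here carry glucose into the cell, break it down to pyruvate and lactate, and pass pyruvate to the mitochondrion. They are 34 gene symbols, present as 35 of the 52636 rows of the count table because Aldoa has a second, nearly empty row. Of these symbols, 33 were chosen by their function in glycolysis, lactate transport or the pyruvate dehydrogenase complex. Slc16a5, a monocarboxylate transporter, was added because its level was low after 4 h of tamoxifen, so its values are given as a description with no test.

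The study measured gene expression by RNA-seq in the inner cell mass (ICM) of mouse blastocysts with or without a treatment meant to switch ERK on. All 7 libraries came from embryos of genotype Sox2Cre;CRAFR26 (source cRAFR26), which carry an inducible cRAF construct that activates ERK when 4-hydroxytamoxifen (4OHT, called tamoxifen here) is added. Embryos were flushed at E2.5 and kept for 24 h in KSOM medium with the FGF receptor inhibitor PD173074 at 250 nM. The vehicle group (3 libraries, time label 0 h) received ethanol for 4 h and the tamoxifen group (4 libraries) received 250 nM 4OHT for 4 h. The PD173074 treatment and the genotype were therefore common to both groups. Sox2Cre is a Cre driver active in the epiblast lineage, and the libraries came from 2 biological clones of the targeted cells, clone 4 and clone 8. Trophectoderm was removed by immunosurgery, 10 ICMs were pooled for each library, which took 2 ng of RNA, and the labels call the material E3.5 epiblast. Libraries are named here by clone and number (clone4_1, clone4_2 and clone8_1 for vehicle, and these plus clone8_2 for tamoxifen), and values are given in that order. A further vehicle sample was discarded by the submitters at quality control, so clone 8 had 1 vehicle library. Nothing in the labels says that the pools of a group came from separate litters, so p-values measure only the spread between these pooled libraries.

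Library totals ranged from 22981498 to 42294719 counts, and 16248 genes passed the expression filter. Short transcripts were low in vehicle clone8_1. For tested genes whose typical transcript was under 1000 nt, this library lay at a median log2 deviation of -1.01 from the middle of the 7 libraries, while the other 6 lay between -0.012 and 0.18. Values without this library are given beside the results that rest on it. The labelled tissue was checked with marker lists. Naive epiblast markers summed to 1665 to 2044 CPM (counts scaled to library size) in vehicle and 1708 to 2199 CPM in tamoxifen libraries, with Nr0b1 between 0 and 1.1 CPM. Primitive endoderm markers summed to 845 to 1148 and 884 to 1031 CPM, with Sox7 under 1 CPM in every library. Trophectoderm markers were high despite immunosurgery, with sums of 8530 to 11228 CPM in vehicle and 6546 to 9534 CPM in tamoxifen libraries. Markers of cumulus or oviduct cells summed to at most 1.19 CPM and Ptx3 was at 0 in all 7 libraries.

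Glycolysis splits glucose into pyruvate through a chain of cytosolic enzymes and yields ATP and NADH. Lactate dehydrogenase converts pyruvate to lactate, which leaves or enters the cell through monocarboxylate transporters. Alternatively, pyruvate enters the mitochondrion through the mitochondrial pyruvate carrier and is turned into acetyl-CoA by the pyruvate dehydrogenase complex, which pyruvate dehydrogenase kinases switch off. Early mouse embryos rely on pyruvate and lactate, and glucose uptake increases as the blastocyst forms.

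In this comparison of tamoxifen with vehicle, no member passed the test over all genes. Most members had somewhat lower values with tamoxifen, among them both glucose transporters, hexokinase 2 and both subunits of the pyruvate dehydrogenase E1 enzyme. All 34 symbols passed the expression filter. Of the 33 tested, 23 had a lower and 10 a higher fitted level in tamoxifen libraries, beside 48.3% lower among all genes tested. The median log2 fold change was -0.17 for the 33 members and 0.019 for all genes. Without vehicle clone8_1, 20 of the 33 were lower beside 49.6% of all genes, with a median of -0.19 for the members. The quasi-likelihood test of edgeR, adjusted by the Benjamini-Hochberg method, called 0 members and 0 of 16248 genes (0%). Adjusted p-values of the members ran from 0.794 to 0.991. DESeq2 called 4 genes and 0 members. At an unadjusted p under 0.05 edgeR had 970 genes in all. They included 5 members, Slc2a1, Slc2a3, Hk2, Pdha1 and Pdhb, all lower, beside 3.28% of all genes that were lower at that threshold. No member was higher at that threshold, beside 2.69% of all genes. Every tamoxifen library lay below every vehicle library for 4 of the 33 members, Slc2a3, Hk2, Pdha1 and Pdhb, beside 4.74% of all genes, and above for 0 members, beside 3.71%.

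The count of 5 members depended on single libraries. It was 8 without vehicle clone4_2, where Pfkp and Aldoc joined with higher values and Eno1 and Eno2 with lower ones while Slc2a1 was lost. It was 3 (Slc2a3, Hk2 and Pdha1) without tamoxifen clone4_2 and also without tamoxifen clone8_1. Without vehicle clone8_1 it was 4, with Pdhb lost. The count stayed at 5 without vehicle clone4_1, though Slc2a1 was lost, and without tamoxifen clone4_1 or clone8_2, though Pdhb was lost. With clone as a block it was 4, and Slc2a1 was not among them (unadjusted p = 0.0507, edgeR's quasi-likelihood test). Slc2a3, Hk2 and Pdha1 stayed under an unadjusted p of 0.05 whichever of the 7 libraries was left out.

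**Figure D1:**
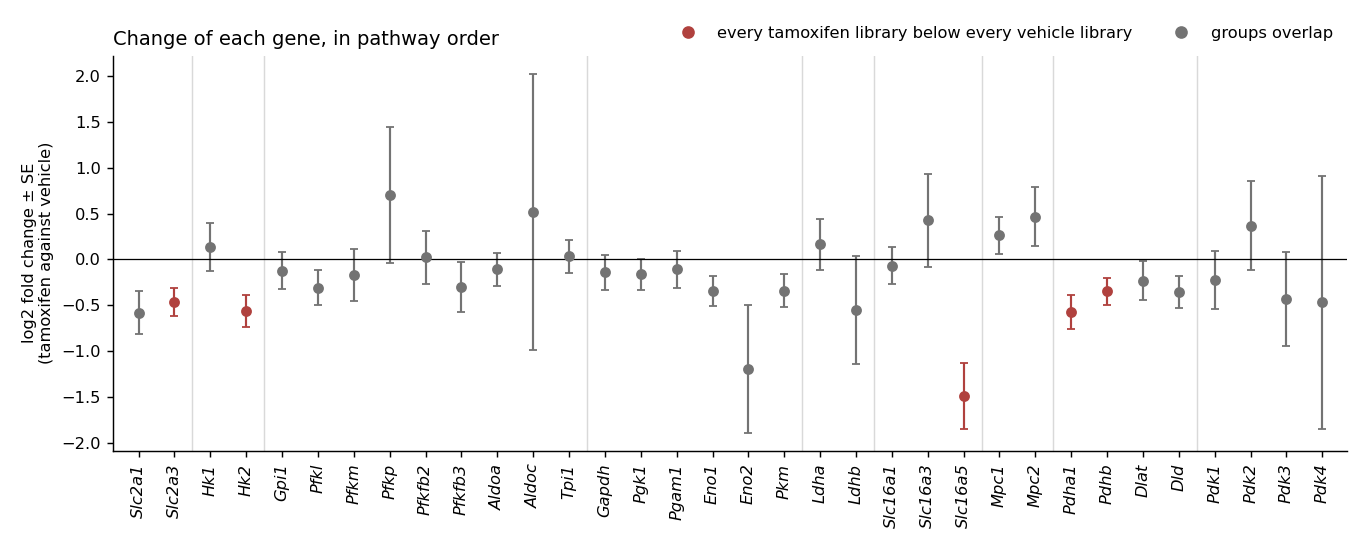
Log2 fold change of tamoxifen against vehicle (y axis) for the 34 genes in pathway order (x axis), with bars of 1 standard error from the edgeR fit and grey lines between roles. Slc2a3, Hk2, Slc16a5, Pdha1 and Pdhb, in red, had every tamoxifen library below every vehicle library, and the bars of Aldoc and Pdk4 are the widest because few reads were counted.

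Together the 34 genes took a smaller share of the library with tamoxifen. Their share of all counts was 0.685%, 0.612% and 0.732% in the 3 vehicle libraries. It was 0.561%, 0.554%, 0.543% and 0.589% in the 4 tamoxifen libraries, so that the groups did not overlap. This share is set mostly by the most abundant members. Among genes of at least 10 CPM, 16 of 21 tested members were lower beside 54.1% of 8053 genes, and the median log2 fold change was -0.16 for these members and -0.031 for these genes. The same 4 members did not overlap, beside 6.93% of these genes. Within groups the abundant members varied about as other abundant genes did, with a median SD of 0.25 and 0.29 on the log2 scale. In bulk samples such as these, fewer cells of a type and less RNA per cell cannot be told apart. Trophectoderm markers also had lower fitted levels with tamoxifen, 10 of 10, beside 48.3% of all genes. Of them 3 (Gata3, Krt7 and Elf3) were past the unadjusted threshold, beside 3.28%. Gata3 and Elf3 had every tamoxifen library below every vehicle library, beside 4.74% of all genes. The sums of the 10 markers overlapped between groups. They were 8530 to 11228 CPM in vehicle and 6546 to 9534 CPM in tamoxifen libraries, mostly from Krt8 and Krt18. Gata3 had a mean of 928.7 ± 87.4 CPM (SD, n = 3) with vehicle and of 670.1 ± 42.7 CPM (SD, n = 4) with tamoxifen. The part of trophectoderm RNA in the lower values of the members was not tested. Of the naive epiblast markers 7 of 9 tested were higher, with Klf4 past the unadjusted threshold (log2 fold change 0.49), though not without vehicle clone8_1. Of the primitive endoderm markers 6 of 9 tested were higher, with Sox17 and Lama1 past that threshold, beside 2.69% of all genes. Sox17 had a mean of 2.96 ± 2.30 CPM (SD, n = 3) with vehicle and of 17.7 ± 7.93 CPM (SD, n = 4) with tamoxifen, and Lama1 of 4.21 ± 0.882 and 10.8 ± 4.17 CPM. Both had every tamoxifen library above every vehicle library, beside 3.71% of all genes. Their part in the members' values was not tested either.

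Of the 5 genes with an unadjusted p under 0.05, 4 have a promoter window in RefSeq (GRCm38.p6), and their sequences are shown because these genes had lower values together. They are printed 5′ to 3′ on the strand of the gene and end at or before the start of the gene in GENCODE, and for Slc2a1, where the match spans that start, as 30 bases around the match. Capitals mark the motif ACGTG, a form of the core of the hypoxia response element, which reads CACGT where it lies on the other strand. Other forms of the core were not searched for and are not marked.
Slc2a1 (chr4:119108697-119108726, plus strand): gtcccgccccggACGTGctccccaggcccc
Hk2 (chr6:82774455-82774704, minus strand): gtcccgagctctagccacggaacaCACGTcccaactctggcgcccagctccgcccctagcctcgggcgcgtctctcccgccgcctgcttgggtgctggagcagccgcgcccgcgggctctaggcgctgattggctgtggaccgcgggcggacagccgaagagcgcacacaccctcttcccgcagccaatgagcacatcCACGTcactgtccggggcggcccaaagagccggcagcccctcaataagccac
Pdha1 (chrX:160138431-160138680, minus strand): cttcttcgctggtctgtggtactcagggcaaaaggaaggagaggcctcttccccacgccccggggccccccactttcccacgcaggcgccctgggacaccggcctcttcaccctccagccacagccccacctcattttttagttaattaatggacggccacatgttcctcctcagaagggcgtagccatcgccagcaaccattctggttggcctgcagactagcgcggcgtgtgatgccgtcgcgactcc
Pdhb (chr14:8173026-8173242, minus strand): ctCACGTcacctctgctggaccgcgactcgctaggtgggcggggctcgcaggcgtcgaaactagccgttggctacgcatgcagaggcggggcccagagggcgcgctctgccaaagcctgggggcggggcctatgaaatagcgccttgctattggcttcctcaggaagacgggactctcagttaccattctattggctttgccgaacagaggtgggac

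Hk2 had 2 matches, which begin 226 and 52 bases before the RefSeq start. Slc2a1 and Pdhb had 1 match each, 36 and 248 bases before that start. ACGTG was on neither strand of the Pdha1 window, where other forms of the core were not searched for. Windows of 250 bases upstream of the start were found for 32 of the 34 members, 49 windows in all, and Slc2a3 and Slc16a5 were not among them. On either strand, ACGTG was in 19 of the 49 windows (38.8%), which belong to 15 members, and in 16.6% of the 32851 mouse windows. Windows of the same gene can overlap, so a site can be counted repeatedly, as in Aldoa. The mouse windows were counted in the same way but were not matched to the member windows for base composition. The difference between these shares was not tested. The E-box CACGTG, each copy of which also holds ACGTG once on each strand, was in 6 windows (12.2%) beside 6.02% of all windows. Ldha held 2 E-boxes and 5 ACGTG matches, the most of any member window, and its fitted level was not lower with tamoxifen. These matches are descriptions of the sequence.

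Glucose enters the cell through facilitative transporters of the Slc2a family. Slc2a3 (GLUT3, a high-affinity transporter) lies at chr6:122727809-122801640 on the minus strand of GRCm38. It was at 1093, 1253 and 1130 CPM in vehicle and at 772, 912, 726 and 939 CPM in tamoxifen libraries. All 4 tamoxifen libraries were below all 3 vehicle libraries, and the means were 1159 ± 83.5 CPM (SD, n = 3) and 837.1 ± 104 CPM (SD, n = 4). The fold change was -0.47 ± 0.15 on the log2 scale (SE; unadjusted p = 0.0116, adjusted p = 0.794, edgeR's quasi-likelihood test). It was -0.49 in clone 4 alone and -0.45 in clone 8, the latter with 1 vehicle library and no test. Slc2a1 (GLUT1, the widespread basal transporter; chr4:119108711-119137983, plus strand) was at 182, 134 and 98.0 CPM in vehicle and at 108, 89.5, 69.6 and 101 CPM in tamoxifen libraries. Here vehicle clone8_1 lay within the range of the tamoxifen libraries. The means were 138 ± 41.9 CPM (SD, n = 3) and 92.0 ± 16.8 CPM (SD, n = 4), and the log2 fold change was -0.58 ± 0.23 (SE; unadjusted p = 0.0312, adjusted p = 0.794, edgeR's quasi-likelihood test). It rested on vehicle clone4_1, without which it was -0.35 (unadjusted p = 0.161, edgeR). Both loci overlap other annotated genes: antisense Gm12868 at Slc2a1 and the same-strand pseudogene Gm4482 at Slc2a3. Per kilobase of the longest transcript, Slc2a3 made up 81.5 ± 5.1% (SD, n = 3) of the pair with vehicle and 82.6 ± 2.6% (SD, n = 4) with tamoxifen. Slc2a3 had the larger share of this pair in all 7 libraries, from 75.8% to 85.7%. Slc2a8, a further GLUT gene that is not counted in the share, was at 124 to 144 CPM in vehicle and at 144 to 189 CPM in tamoxifen libraries.

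Hexokinases trap glucose in the cell by phosphorylating it. Hk2 (chr6:82725025-82774454, minus strand) was at 275, 258 and 209 CPM in vehicle and at 173, 135, 195 and 164 CPM in tamoxifen libraries. The highest tamoxifen library, clone8_1, was just under the lowest vehicle library, clone8_1. The means were 247 ± 34.1 CPM (SD, n = 3) and 167 ± 24.9 CPM (SD, n = 4), and the log2 fold change was -0.57 ± 0.18 (SE; unadjusted p = 0.00917, adjusted p = 0.794, edgeR's quasi-likelihood test). It was -0.80 in clone 4 alone and -0.22 in clone 8. No stretch of 50 bases of the longest Hk2 transcript is shared with another gene, and antisense Gm17034 overlaps the locus. Hk1, the widely expressed hexokinase, had overlapping values of 18.8 to 31.8 CPM in vehicle and 21.6 to 37.9 CPM in tamoxifen libraries (log2 fold change 0.14 ± 0.26, SE). Hk2 made up 87.5 ± 3.6% (SD, n = 3) of the pair per kilobase with vehicle and 81.0 ± 5.8% (SD, n = 4) with tamoxifen, with overlapping libraries.

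**Figure D2:**
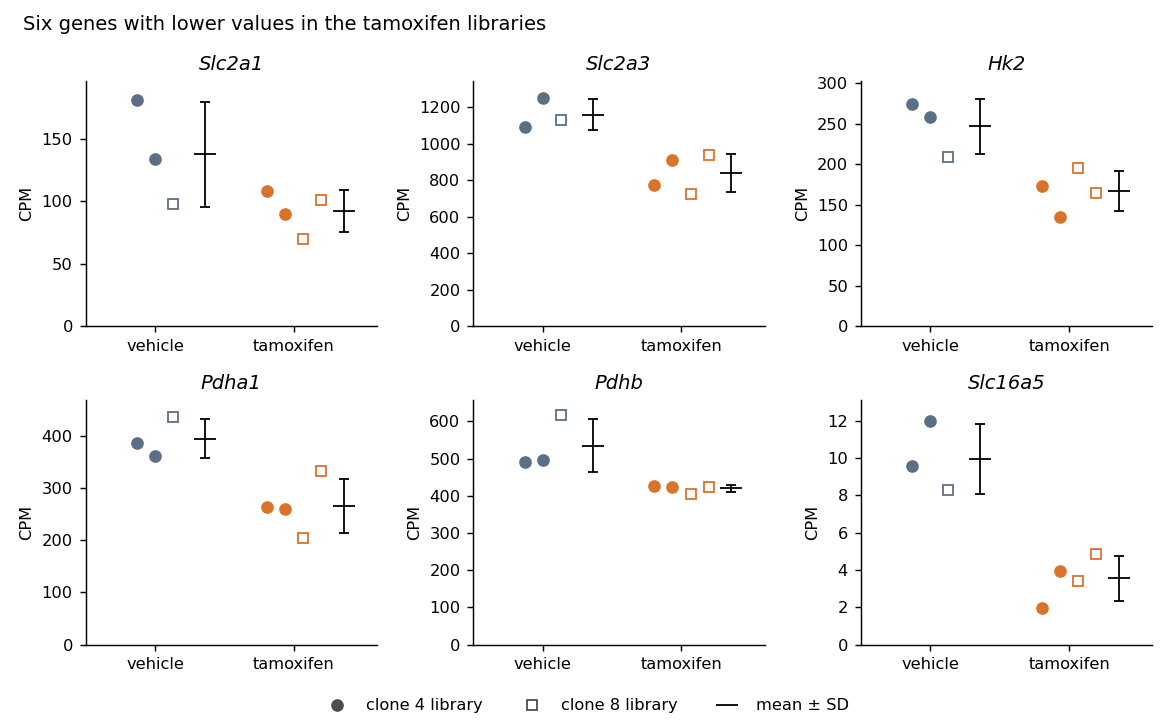
CPM (y axis, from 0) of Slc2a1, Slc2a3, Hk2, Pdha1, Pdhb and Slc16a5 in vehicle and tamoxifen libraries, filled circles for clone 4 and open squares for clone 8, with the mean ± SD beside each group (n = 3 and n = 4). The groups overlap for Slc2a1, where vehicle clone8_1 (98.0 CPM) lies below tamoxifen clone8_2 (101 CPM), and for none of the other 5 genes.

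The preparatory steps after hexokinase did not separate the groups. Gpi1 (glucose-6-phosphate isomerase, log2 fold change -0.12 ± 0.20, SE), Aldoa (aldolase A, -0.11 ± 0.18) and Tpi1 (triosephosphate isomerase, 0.03 ± 0.18) all differed between groups by less than their standard errors. Without vehicle clone8_1 all 3 changed sign, to 0.079, 0.067 and -0.015. Aldoa was at 1380, 1043 and 1702 CPM in vehicle and at 1260, 1208, 1404 and 1237 CPM in tamoxifen libraries. Vehicle libraries were both the lowest and the highest of the 7. Among the phosphofructokinases, which set the committed step, the liver form Pfkl was at 28.0, 31.0 and 31.4 CPM in vehicle and at 21.5, 21.6, 28.9 and 25.2 CPM in tamoxifen libraries (-0.31 ± 0.19, SE). Only tamoxifen clone8_1 reached the vehicle range. The muscle form Pfkm gave -0.17 ± 0.28. The platelet form Pfkp varied most, from 0.769 to 8.38 CPM in vehicle and from 3.81 to 12.5 CPM in tamoxifen libraries (0.70 ± 0.74). Leaving out 1 library moved the Pfkp value to between 0.095 without tamoxifen clone4_2 and 2.03 without vehicle clone4_2. Pfkl made up 69.2 ± 4.3% (SD, n = 3) of the 3 forms per kilobase with vehicle and 64.7 ± 6.5% (SD, n = 4) with tamoxifen. Pfkm made up 27.1% and 28.2%, and Pfkp 3.74% and 7.14%. These shares depend on the transcript length used: with typical lengths Pfkp was at 8.62% and 15.8%, and Pfkl at 65.1% and 58.3%. The bifunctional regulators Pfkfb2 (0.02 ± 0.29) and Pfkfb3 (-0.30 ± 0.28), which make and remove the activator fructose 2,6-bisphosphate, were each under 10 CPM in every library. Pfkfb2 overlaps Gm29427 on the same strand and shares 26.1% of its 50-base stretches with it. Aldoc, the brain aldolase, had 0 counts in vehicle clone4_1 and clone8_1, which allows up to 0.0744 and 0.0731 CPM (3 counts), and 1.84 CPM in vehicle clone4_2. In tamoxifen libraries it was between 0.284 and 1.72 CPM. Its fold change of 0.52 ± 1.51 (SE) is uninformative at these counts, and ranged from -0.08 to 7.97 when 1 library was left out. Aldoa made up at least 99.9% of the aldolase pair in every library.

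The payoff steps, which recover ATP and end in pyruvate, likewise overlapped. Eno1 (enolase 1) was at 318, 248 and 292 CPM in vehicle and at 273, 207, 213 and 207 CPM in tamoxifen libraries. Only tamoxifen clone4_1 reached the vehicle range (log2 fold change -0.35 ± 0.17, SE; unadjusted p = 0.0674, adjusted p = 0.794, edgeR's quasi-likelihood test). Pkm (muscle pyruvate kinase) was at 770, 668 and 956 CPM in vehicle and at 645, 704, 489 and 685 CPM in tamoxifen libraries, with the highest value in vehicle clone8_1. Its log2 fold change was -0.34 ± 0.19 (SE) over all libraries and -0.10 in clone 4 alone. Gapdh (-0.14 ± 0.19), Pgk1 (-0.16 ± 0.17) and Pgam1 (-0.11 ± 0.20), the dehydrogenase, kinase and mutase between aldolase and enolase, differed by less than their standard errors. Pgam1 turned to 0.12 without vehicle clone8_1. Eno2, the neuronal enolase, was under 1.1 CPM in 6 libraries and at 3.17 CPM in vehicle clone8_1, without which its log2 fold change of -1.20 was -0.24. Many of these genes have processed pseudogenes, and the authors' handling of reads that match several places is not given in the sources used here. Of the 50-base stretches of the longest transcript, 72.2% of Eno1, 68.0% of Pgk1, 41.5% of Pgam1, 34.4% of Pkm and 27.8% of Gapdh also occur in another annotated gene. The levels of these genes are therefore uncertain. Hk2 and Slc16a5 have no such stretch.

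Lactate dehydrogenase transcripts were at low levels in these libraries. Of the 50-base stretches of their longest transcripts, 16.6% for Ldha and 27.0% for Ldhb also occur in another gene. These levels are therefore uncertain too. Ldha, the form that favours lactate production, was at 22.6, 14.7 and 29.7 CPM in vehicle and at 19.2, 28.1, 31.0 and 21.8 CPM in tamoxifen libraries (log2 fold change 0.16 ± 0.28, SE). Ldhb, the heart form, was at 1.51, 2.83 and 6.19 CPM in vehicle and at 1.23, 1.72, 4.48 and 2.16 CPM in tamoxifen libraries. In each condition the highest Ldhb value was in a library titled clone8_1. The log2 fold change was -0.55 ± 0.59 (SE) and turned to 0.13 without vehicle clone8_1. Ldha made up 82.6 ± 7.7% (SD, n = 3) of the pair per kilobase with vehicle and 88.8 ± 4.1% (SD, n = 4) with tamoxifen, with overlapping libraries. Per kilobase of the longest transcript and over 7 libraries, Ldha was at 13.1 ± 3.31 CPM (SD, n = 7) and Pkm, which makes its substrate, at 289 ± 58.0 CPM (SD, n = 7).

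Some monocarboxylate transporters, among them those encoded by Slc16a1 and Slc16a3, move lactate across the plasma membrane. Whether Slc16a5 carries lactate or pyruvate was not measured here. Slc16a5 (MCT6; chr11:115462474-115474398, plus strand) was at 9.60, 12.02 and 8.28 CPM in vehicle and at 1.94, 3.97, 3.43 and 4.86 CPM in tamoxifen libraries. Every tamoxifen library was below every vehicle library, as its selection on this contrast required it to be low. These values rest on 340 to 387 counts in vehicle and 82 to 200 counts in tamoxifen libraries. The means were 9.97 ± 1.90 CPM (SD, n = 3) and 3.55 ± 1.22 CPM (SD, n = 4), and the fitted log2 fold change was -1.49 ± 0.36 (SE). It was -1.89 in clone 4 alone and -1.01 in clone 8. Antisense Gm11695 overlaps the gene and the strand setting of the counting is not given, so reads of the pair cannot be told apart. Slc16a1 (MCT1, the widespread form) was at 119, 155 and 102 CPM in vehicle and at 110, 137, 95.6 and 137 CPM in tamoxifen libraries. The groups overlapped, with a log2 fold change of -0.07 ± 0.20 (SE). Slc16a3 (MCT4, a lactate exporter of glycolytic cells) was at most 3.06 CPM in any library (0.43 ± 0.51). Its fold change was 0.98 without vehicle clone8_1, the vehicle library with the most reads of the gene.

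**Figure D3:**
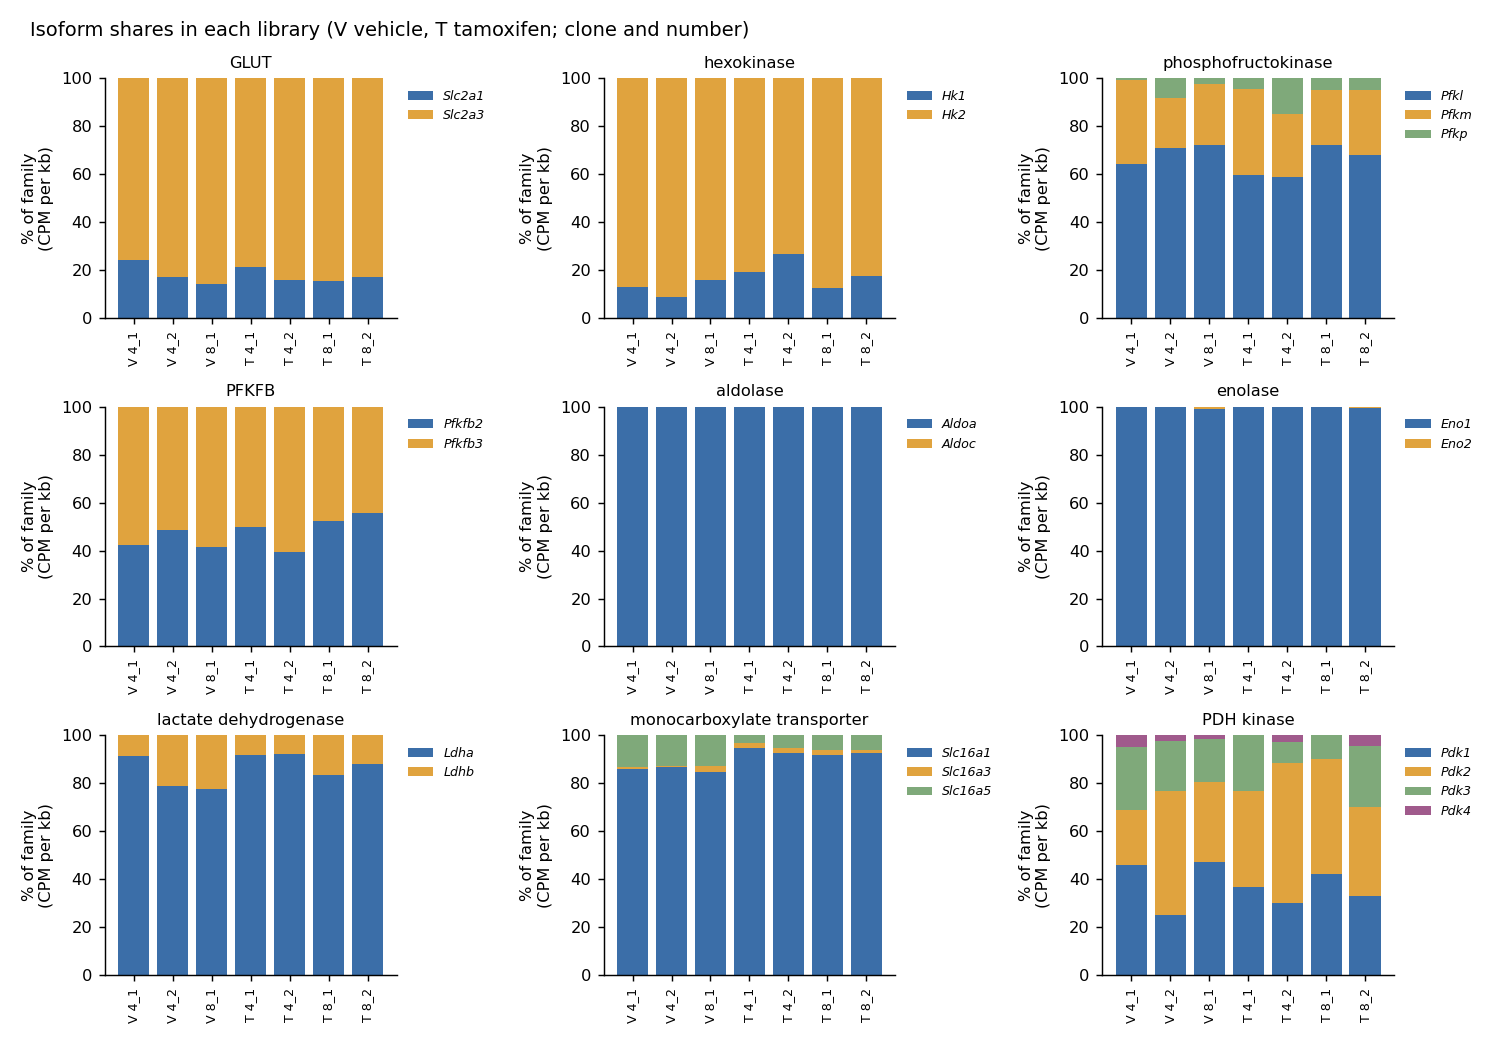
Share of each form in its family (y axis, percent of the family's CPM per kilobase of the longest transcript) in each of the 7 libraries (x axis, V vehicle and T tamoxifen, clone and number). In the monocarboxylate transporter panel the Slc16a5 share is 12.9% in vehicle and 5.18% in tamoxifen libraries on average, while the aldolase and enolase panels have 1 main form throughout and the GLUT panel compares Slc2a1 with Slc2a3 only.

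Slc16a5 took a different share of its family in the 2 conditions, which follows from the choice of this gene. It was 13.2%, 12.7% and 13.0% of the 3 transporters per kilobase in vehicle libraries and 3.17%, 5.09%, 6.24% and 6.23% in tamoxifen libraries. Slc16a1 was correspondingly 85.8 ± 0.98% (SD, n = 3) and 93.0 ± 1.3% (SD, n = 4). Outside this family, vehicle and tamoxifen libraries overlapped for every form. The shares with the widest difference of means were those of Pdk2 among the pyruvate dehydrogenase kinases, with 36.2 ± 14.6% (SD, n = 3) and 46.1 ± 9.7% (SD, n = 4) and overlapping libraries.

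The mitochondrial pyruvate carrier, a heteromer of Mpc1 and Mpc2, had higher mean values with tamoxifen. Mpc1 was at 63.6, 49.1 and 42.4 CPM in vehicle and at 66.4, 52.2, 56.0 and 73.2 CPM in tamoxifen libraries (log2 fold change 0.26 ± 0.20, SE). Without vehicle clone8_1 the Mpc1 fold change was 0.13, and in clone 4 alone it was 0.065. Of the 50-base stretches of the longest Mpc1 transcript, 29.6% also occur in another gene, so its level is uncertain. Mpc2 was at 98.5, 101 and 35.5 CPM in vehicle and at 116, 89.4, 124 and 103 CPM in tamoxifen libraries. The single low Mpc2 value was that of vehicle clone8_1, and the log2 fold change of 0.46 ± 0.32 (SE) was 0.11 without that library and 0.03 in clone 4 alone. Mpc2 was the 1 member past the threshold in the interaction of clone and condition, a result that rests on 1 library. The interaction was 1.63 on the log2 scale (adjusted p = 0.0364 by edgeR's quasi-likelihood test), beside 514 of 16248 genes (3.16%) called in that test. The test has 1 vehicle library of clone 8, the one in which transcripts under 1000 nt were low. The typical Mpc2 transcript is 1025 nt, just past that limit, and the median deviation of the library was 0 in the next class of longer transcripts. With offsets for transcript length the interaction was 1.12 (adjusted p = 0.187, edgeR), and 0 members were called, while it was called with another scaling and with no filter on low counts. Mpc1 and Mpc2 have the shortest typical transcripts of the 21 members of at least 10 CPM, and their deviations in vehicle clone8_1 from the median of the 7 libraries were -0.40 and -1.51. For Mpc2 the other 6 libraries deviated by -0.18 to 0.29.

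**Figure D4:**
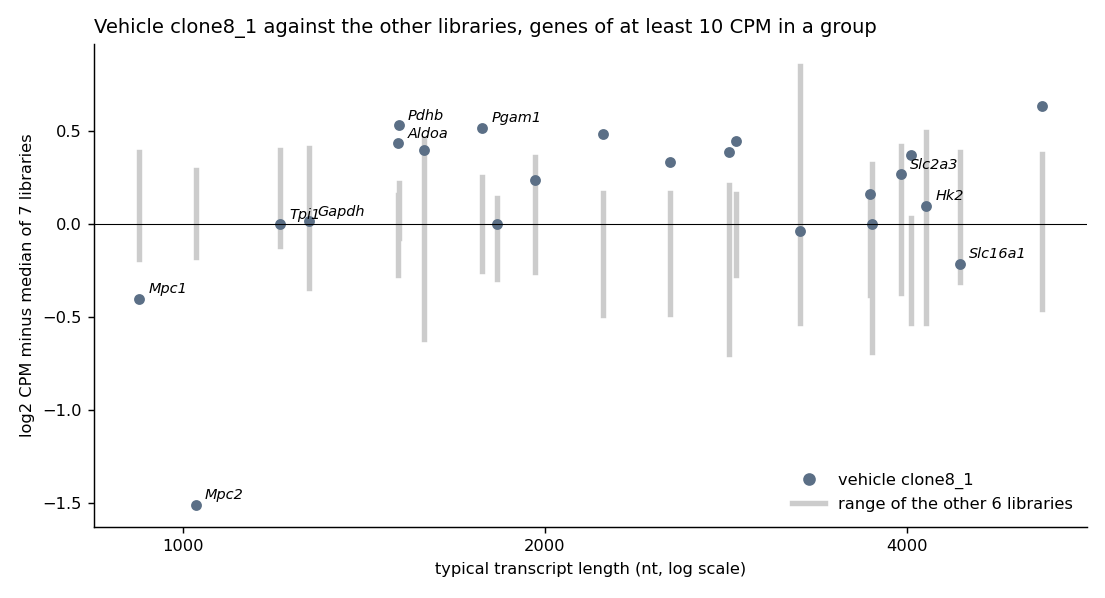
Deviation of log2 CPM in vehicle clone8_1 from the median of the 7 libraries (y axis, points) against the typical transcript length of the gene in nt (x axis, log scale) for members of at least 10 CPM in a group, with bars for the range of the other 6 libraries. Mpc2 lies lowest at -1.51, followed by Mpc1 at -0.40, and both are outside the range of the other libraries.

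The pyruvate dehydrogenase complex, which commits pyruvate to the mitochondrion, had lower values for all 4 of its members here. Pdha1 (E1 alpha subunit; chrX:160122209-160138413, minus strand) was at 386, 363 and 437 CPM in vehicle and at 265, 260, 206 and 334 CPM in tamoxifen libraries. All tamoxifen libraries were below all vehicle libraries, with clone8_2 the nearest. The means were 395 ± 37.7 CPM (SD, n = 3) and 266 ± 52.5 CPM (SD, n = 4), and the log2 fold change was -0.57 ± 0.18 (SE; unadjusted p = 0.0110, adjusted p = 0.794, edgeR's quasi-likelihood test). It was -0.52 in clone 4 alone and -0.74 in clone 8. Pdhb (E1 beta subunit; chr14:8165996-8173025, minus strand) was at 492, 496 and 617 CPM in vehicle and at 427, 423, 405 and 424 CPM in tamoxifen libraries. The tamoxifen libraries were close together and all below the vehicle libraries, of which clone8_1 was the highest. The means were 535 ± 70.9 CPM (SD, n = 3) and 419.7 ± 10.1 CPM (SD, n = 4), and the log2 fold change was -0.35 ± 0.15 (SE; unadjusted p = 0.0387, adjusted p = 0.794, edgeR's quasi-likelihood test). Its unadjusted p rose to between 0.0591 and 0.0777 in that test when vehicle clone8_1 or any 1 of the 4 tamoxifen libraries was left out. Dld (E3, dihydrolipoamide dehydrogenase) was at 197, 221 and 249 CPM in vehicle and at 170, 178, 141 and 205 CPM in tamoxifen libraries, where clone8_2 overlapped (-0.36 ± 0.17, SE). Dlat (E2, the acetyltransferase) overlapped more widely (-0.23 ± 0.21), and its value was -0.043 without vehicle clone8_1 and 0.0041 in clone 4 alone. Of the 50-base stretches of Pdha1, 16.9% also occur in another gene, and Map3k15 overlaps its locus on the opposite strand.

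Pyruvate dehydrogenase kinases inactivate the complex by phosphorylating E1 alpha. All 4 were low, with Pdk1 at 6.48 to 13.9 CPM, Pdk2 at 2.28 to 9.91 CPM and Pdk3 at 0.686 to 2.43 CPM over the 7 libraries. Pdk4, which is known as the kinase induced by fasting, was at 0.292 to 0.744 CPM in vehicle libraries and at 0.690 and 0.704 CPM in tamoxifen clone4_2 and clone8_2. It had 0 counts in tamoxifen clone4_1 and clone8_1, which allows up to 0.0710 and 0.108 CPM (3 counts). Log2 fold changes were -0.22 ± 0.32 (SE) for Pdk1, 0.37 ± 0.48 for Pdk2 and -0.43 ± 0.51 for Pdk3. Pdk2 turned to -0.12 without tamoxifen clone4_2, and Pdk1 to 0.044 without vehicle clone8_1. Per kilobase, Pdk1 and Pdk2 together gave most of the kinase level in every library.

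**Figure D5:**
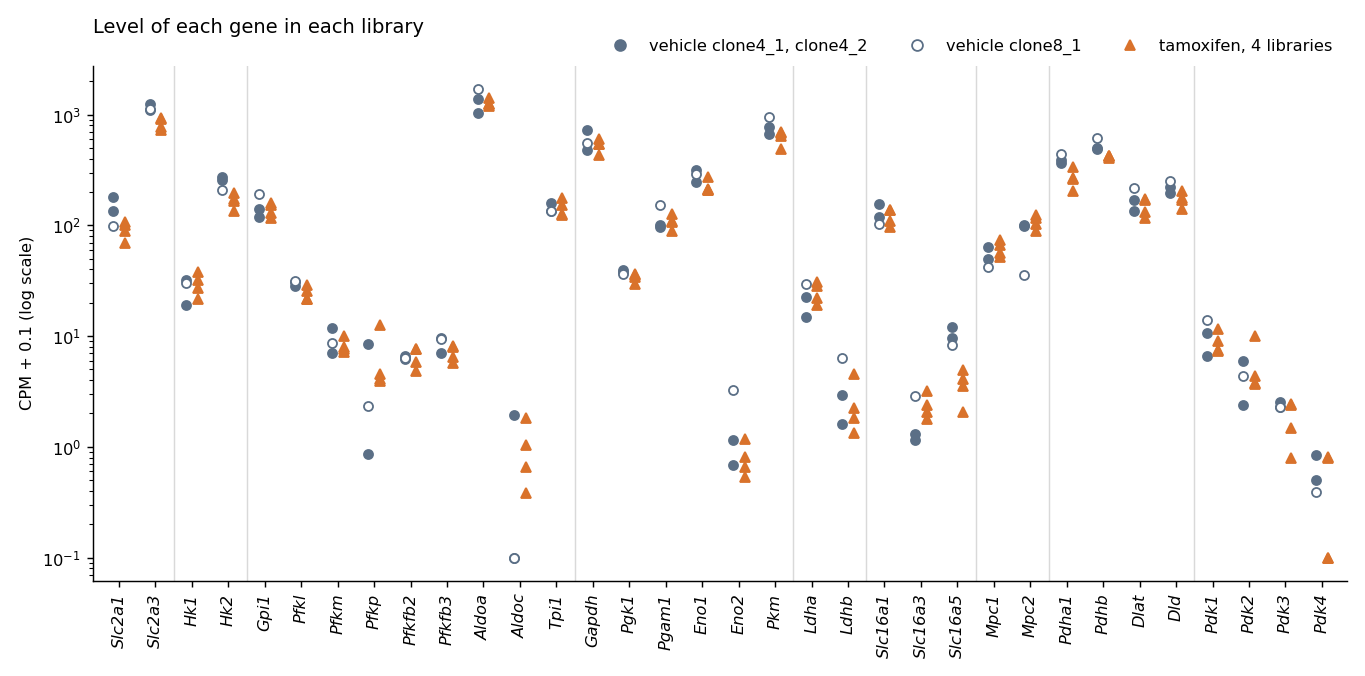
CPM of the 34 genes in each library (y axis, log scale, 0.1 added so that counts of 0 can be drawn) in pathway order (x axis), with circles for vehicle libraries, open for clone8_1, and triangles for the 4 tamoxifen libraries. Aldoa and Slc2a3 lie highest, and Aldoc, Pdk4 and Eno2 lie lowest.

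Per kilobase of the longest transcript, Aldoa was the most abundant member at 852 ± 134 CPM per kilobase (SD, n = 7), followed by Pkm at 289 ± 58.0, Pdhb at 197 ± 31.3, Gapdh at 169 ± 28.6 and Slc2a3 at 156 ± 30.9. Gapdh and Slc2a3 differed by less than their spread over libraries. Eno1 (124 ± 21.9) and Pdha1 (113 ± 28.6) came next and also overlapped. The order depended on the transcript length used: with a typical rather than the longest transcript, Gapdh moved from rank 4 to rank 2 (437 CPM per kilobase) and Mpc2 from rank 17 to rank 9 (93.0 CPM per kilobase).

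Clone 4 has both conditions in duplicate and was also examined alone. With edgeR's quasi-likelihood test, 21 of the 33 members were lower with tamoxifen beside 51.3% of all genes, and 4 of them (Slc2a1, Slc2a3, Hk2 and Pdha1) were lower at an unadjusted p under 0.05 beside 4.33% of all genes. It called 0 members after adjustment. In clone 8 the difference of the mean log2 values was negative for 25 of 33 members beside 49.6% of all genes, with no test. Between clones, with condition in the model, edgeR called 0 members and 0 of 16248 genes (0%), with 509 genes and 2 members at an unadjusted p under 0.05. DESeq2 called 13 genes and 0 members. The 2 members were Gpi1 (log2 difference of clone 8 from clone 4 of 0.42) and Ldhb (1.31).

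Related pathways were read from lists in the same fit, and edgeR called 0 genes in each after adjustment. Their counts stand beside 48.3% of all genes lower, 3.28% lower and 2.69% higher at an unadjusted p under 0.05, and 4.74% with every tamoxifen library below every vehicle library. Beside the members, 19 further genes of glycolysis and pyruvate use were tested, 8 higher and 11 lower. Of these Hkdc1 (a hexokinase relative, log2 fold change -1.03) and Eno3 (muscle enolase, -1.28) were lower at an unadjusted p under 0.05. In the pentose phosphate pathway, 6 of 7 genes were lower, and G6pdx, its first enzyme, was at 56.7, 61.7 and 61.8 CPM in vehicle and at 41.1, 39.0, 28.9 and 44.6 CPM in tamoxifen libraries. The groups did not overlap for G6pdx (-0.64 ± 0.19, SE; unadjusted p = 0.00604, adjusted p = 0.794, edgeR's quasi-likelihood test), and Rpia, at -0.81, was past the unadjusted threshold with all libraries but not without vehicle clone8_1. In the TCA cycle, which takes up the acetyl-CoA made by the complex, 12 of 16 genes were lower, with Cs (-0.40), Idh3a (-0.38) and Ogdh (-0.46) at an unadjusted p under 0.05. Without vehicle clone8_1 only Cs of these 3 stayed under it. Of the hypoxia response genes 8 of 11 tested were lower, with Hif1a (-0.49), Arnt (-0.51) and Bnip3 (-0.45) at that threshold and no overlap between groups. Hif1a and Arnt encode the subunits of the factor known to bind the hypoxia response element. In gluconeogenesis, the reverse route, 4 of 4 tested genes were higher, with Pck2, the mitochondrial PEP carboxykinase, at that threshold (1.10). Without vehicle clone8_1 the log2 fold change of Pck2 was 0.84 and no longer past it (unadjusted p = 0.0667, edgeR's quasi-likelihood test).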

How the data were processed

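The values are raw counts per Ensembl gene that the authors deposited in 1 table, with no normalisation. Per the submitters' processing notes, bcl2fastq 2.19.1, STAR 2.5.3a and the mm10 build were used. The counting program, annotation, strand setting and handling of reads with several matches are not given in the sources used here. Reads of low-input amplified libraries without molecular identifiers are not independent molecules, so limits from counts cover counting error only.

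GENCODE M21 (GRCm38), matched by gene ID, gave the symbols, coordinates and transcript lengths. Of 52636 IDs, 147 did not match, holding at most 0.0113% of a library. Aldoa has 2 IDs, and the one with more counts was used. Promoter windows are from RefSeq (GRCm38.p6).

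The test was that of edgeR 4.0.16, run in R 4.3.3 on the counts (TMM factors, filter by group, quasi-likelihood test, condition as the only term, Benjamini-Hochberg adjustment over 16248 genes, threshold 0.05). CPM values use TMM factors, and log2 values a prior count of 2. The procedure was also run on simulated counts with added changes larger than those fitted for Slc2a1, Slc2a3, Hk2, Pdha1 and Pdhb. Its power for changes of their size was not tested. DESeq2 1.42.0, other scalings and filters, clone or title number as a block, transcript length offsets and leaving out libraries were alternatives. Groups came from the treatment label. Libraries of the same number did not deviate together (correlations 0.0078, 0.0206 and -0.0683), so the comparison is unpaired. No 2 libraries were repeat counts of each other (lowest chi-square per degree of freedom 24.2).

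The members, the lists and the tests were chosen with earlier results of these data known. Every member is named, and from the other lists genes with an unadjusted p under 0.05. Isoform shares are CPM per kilobase of the longest transcript over the sum of the family. A stretch was called shared when an identical run of 50 bases occurs in a transcript of another gene.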

Additional observations from a re-analysis of the deposited data

Results flagged for a closer look

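Among 34 members, 4 had 1 tamoxifen library far from the other 3, by a gap test at the 95% level that chance passes in about 1 of 20 groups. The share of all genes that pass it is not given here, so the count of 4 is a description. Pfkp was at 12.5 CPM in tamoxifen clone4_2, against 3.81 to 4.41 CPM in the other tamoxifen libraries. Pdk2 was at 9.91 CPM in the same library, against 3.61 to 4.24 CPM. Eno1 was at 273 CPM in tamoxifen clone4_1, against 207 to 213 CPM. Pdhb was at 405 CPM in tamoxifen clone8_1, against 423 to 427 CPM, a small gap beside vehicle values of 492 to 617 CPM. The interaction of clone and condition for Mpc2 was 1.63 on the log2 scale, a value that rests on the single vehicle library of clone 8 and did not pass the test with transcript length offsets.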

How the results depend on the processing

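The number of genes called between conditions was 0 in edgeR, 4 with DESeq2 (3 higher, 1 lower, none a member) and 2 without both libraries titled clone8_1, an alternative chosen after seeing the data. With each library left out in turn it was 0. The number of members at an unadjusted p under 0.05 ranged from 3 to 8 when 1 library was left out and was 4 or 5 under the other alternatives. With a replicate block it was 4 (Slc2a1, Slc2a3 and Pdha1 lower, Pfkp higher), and 0 genes were called. The interaction called 0 members with transcript length offsets and 1 in the other settings run. Dlat turned to 0.0041 in clone 4 alone and to 0.059 without both libraries titled clone8_1. Of 575 alternative fold changes of members, 544 moved by less than 1 standard error. The direction of Slc2a1, Slc2a3, Hk2, Pdha1 and Pdhb was lower in every alternative run. As a share of counts without length, the Slc16a1 change was 3.97 and the Slc16a5 change -4.47 percentage points. Low counts limit Aldoc, Eno2, Ldhb, Slc16a3 and the kinases.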
